A study of Mus musculus with 22 samples.

Results

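The genes of the cytosolic ribosomal proteins were followed through bulk RNA sequencing of mouse retina with choroid after laser injury. Members were the protein-coding rows of the deposited count tables named as a small-subunit (Rps) or large-subunit (Rpl) protein, including the stalk proteins Rplp0, Rplp1 and Rplp2 and the laminin receptor protein Rpsa. The rule found 84 of 54532 gene models, the same 84 in both tables. Of these, 31 encode proteins of the 40S subunit, 43 proteins of the 60S subunit and 3 the stalk, and 7 are duplicate or tissue-restricted paralogues. A further 6 rows matched the name pattern but are not annotated as protein coding, and were left out.

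A ribosome is built from a small and a large subunit, each a scaffold of ribosomal RNA dressed with proteins, most of them needed in equal numbers. Cells keep the output of these scattered genes together, largely through how well their messages are translated: most start with a C followed by a run of pyrimidines, the terminal oligopyrimidine (TOP) motif, which places them under the growth-sensing kinase mTOR. Growing and dividing cells carry many ribosomes, and the outer retina, made mostly of rod photoreceptors, is a tissue of cells that no longer divide. Several ribosomal proteins have paralogues with narrow tissue use, such as Rpl3l in striated muscle and Rpl10l and Rpl39l in testis, and most have left processed pseudogenes, copies of the spliced message scattered over the genome.

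The series had 22 libraries in 6 groups. The wild-type groups held 4 libraries each: control without CNV (choroidal neovascularisation, in which vessels of the choroid sprout towards the retina) and tissue taken 3, 7 and 14 days after the laser photocoagulation that brings it about. A second table held 3 libraries of Rag2-/- mice, which lack T and B cells, and 3 of Rag2-/-γc-/- mice, which also lack the common gamma chain that natural killer cells need, all 6 taken 3 days after laser. The protocol names adult C57BL/6J mice for all samples and gives no exact age. It does not say how many eyes or mice went into a library, or that the libraries of a group came from separate mice, so p-values measure the spread between these libraries, which may be technical. The fourth control library is titled as without CNV, but its treatment tag reads laser-induced CNV, and it was kept as a control. The totals ran from 15033983 to 16848254 counts in the wild-type table and from 27227847 to 30315086 in the Rag2 table. Markers of the labelled tissue were present in all libraries: the rod transducin gene Gnat1 at 3059 to 12479 CPM (the usual counts-per-million scale) in wild type and 7856 to 11272 in Rag2 libraries, and the pigment epithelium gene Rpe65 at 53 to 280 and 106 to 198 CPM.

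The 84 genes took a larger part of the counts in every laser-treated wild-type library than in any control. Their summed share of the library was 1.609%, 1.424%, 1.386% and 1.364% in the 4 controls. Day 3 libraries had 2.294%, 2.149%, 3.143% and 2.299%. Those of day 7 had 3.013%, 2.821%, 2.209% and 1.899%, and those of day 14 had 3.068%, 1.769%, 2.768% and 1.843%. The lowest laser-treated library thus stood 0.16 percentage points above the highest control. Group means were 1.45% ± 0.112 (SD, n = 4) in controls and 2.47% ± 0.453 (SD, n = 4) at day 3, and the ratio of mean shares to control was 1.71, 1.72 and 1.63 at days 3, 7 and 14. Counting error was small beside these gaps: the 95% Wilson interval of the highest control was 1.603% to 1.615%. In tissue libraries, more RNA per cell and more cells of a kind rich in these messages cannot be told apart.

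**Figure D1:**
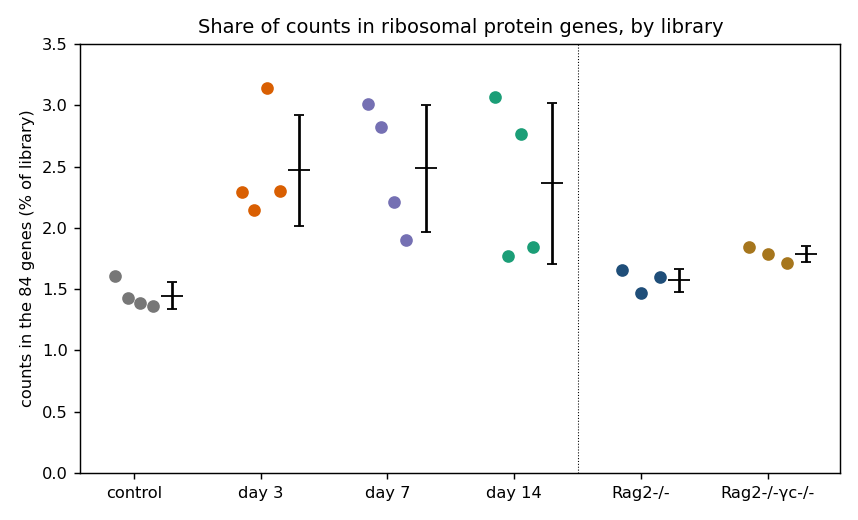
Percent of each library's counts in the 84 ribosomal protein genes (points, 1 per library; bars, mean and SD of the group). All 12 laser-treated wild-type libraries lie between 1.77% and 3.14%, above the 4 controls at 1.36% to 1.61%. The Rag2-/- and Rag2-/-γc-/- libraries, from a separate table that was not compared with the wild-type one, lie between 1.47% and 1.84%.

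Large and small subunit genes moved in step. Counts in all Rpl genes, stalk and paralogues included, were divided by counts in all Rps genes, Rps27l included. The ratio was 1.46 ± 0.0131 (SD, n = 4) in controls and 1.46 ± 0.00743 (SD, n = 4) at day 3. Over all 16 wild-type libraries it stayed between 1.417 and 1.51, both extremes being day 14 libraries, while the share itself ran from 1.364% to 3.143%.

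The TOP motif was looked for at the annotated starts of the members. RefSeq promoter windows (build GRCm38.p6, from 250 bases before to 50 bases after each annotated start) were found for 64 of the 84 members, 76 windows in all since some genes have several starts. A start at C with a pyrimidine run of 5 or more bases occurred in 13 of the 76 windows (17.1%), each from another gene, against 2.51% of all 32851 windows. A run of 8 or more pyrimidines reaching within 10 bases of the start, a looser form that does not depend on the exact annotated base, occurred in 39.5% of the members' windows and in 14% of all. Windows from 15 bases before to 15 bases after the start are shown as examples with and without the run, among them members on which the results turn, with the pyrimidine run that begins at the annotated start in capitals. Rps27, Rpl15, Rpl35, Rps6, Rplp2 and Rps10 have the motif at the annotated start.
Rps27, chr3:90213634-90213663, minus strand: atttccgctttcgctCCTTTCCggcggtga
Rpl15, chr14:18270972-18271001, minus strand: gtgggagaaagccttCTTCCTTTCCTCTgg
Rpl35, chr2:39005117-39005146, minus strand: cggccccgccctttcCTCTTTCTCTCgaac
Rps6, chr4:86857353-86857382, minus strand: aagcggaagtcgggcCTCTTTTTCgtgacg
Rplp2, chr7:141447636-141447665, plus strand: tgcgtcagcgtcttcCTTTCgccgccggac
Rps10, chr17:27635230-27635259, minus strand: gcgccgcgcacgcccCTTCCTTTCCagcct
Rplp0, Rpsa, Rps26 and the paralogues Rpl22l1 and Rpl3l start at G or A in the annotation and have no run at that base. In Rps26 and Rpl22l1 a pyrimidine stretch follows a few bases downstream.
Rplp0, chr5:115559452-115559481, plus strand: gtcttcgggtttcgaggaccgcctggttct
Rpsa, chr9:120127751-120127780, plus strand: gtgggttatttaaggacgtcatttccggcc
Rps26, chr10:128626492-128626521, minus strand: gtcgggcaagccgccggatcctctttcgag
Rpl22l1, chr3:28805493-28805522, plus strand: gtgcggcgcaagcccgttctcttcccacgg
Rpl3l, chr17:24727811-24727840, plus strand: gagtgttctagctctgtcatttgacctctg

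Letters of known promoter elements were counted in the same windows. CCGGAA, the core letters bound by ETS factors, was present on either strand in 36 of the 76 member windows (47.4%) and in 14.9% of all windows. AAGATGGC, the core letters of a YY1 site, was present in 8 (10.5%) against 2.75%, and the GC box GGGCGG in 46 (60.5%) against 35.7%. The TATA letters TATAAA were present in 7 (9.21%) against 13.6%. Changes are given for members with and without the motif at the annotated start. At day 3 the median log2 fold change was 0.77 over the 13 genes with it and 0.83 over the 49 tested genes that have a window without it, and at day 14 the medians were 0.71 and 0.79. The sets are sorted by the exact annotated base, and the second is not free of pyrimidine runs. Rps24, which is in it, has a run of 6 pyrimidines that begins with a T at an annotated start. The difference between the sets was not tested. A match is a description of the letters and does not show that a factor bound there.

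At day 3 levels were higher across both subunits. Of 82 members with enough counts to be tested, 61 rose and 0 fell at an adjusted p under 0.05 in edgeR's quasi-likelihood test, where 6.97% of all 18657 tested genes rose and 7.77% fell. All 82 log2 fold changes were above 0, against 50.7% of all tested genes, and 77 were higher at an unadjusted p under 0.05, against 19.5%. Their median was 0.82, a 1.77-fold higher level than in controls, with quartiles of 0.72 and 0.91, while the median over all tested genes was 0.01. In 75 of the 82 every day 3 library was above every control, against 17.4% of all tested genes.

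Among 40S genes 24 of 31 rose, with a median log2 fold change of 0.80. Rps2, which lines the channel where the message enters the ribosome, had 256, 247, 211 and 235 CPM in controls and 394, 441, 808 and 368 CPM at day 3. Its lowest day 3 library was well above its highest control, and the rise was 1.08 ± 0.35 on the log2 scale (SE; edgeR adjusted p = 0.0497). Rps26, which contacts the message on its way out, had 175, 150, 139 and 129 CPM in controls and 280, 249, 446 and 268 CPM at day 3, again without overlap (log2 difference 1.07 ± 0.29, SE; edgeR adjusted p = 0.0317). Rps12 rose from 93.0 ± 13.0 to 198 ± 48.1 CPM (SD, n = 4 each) and Rps20 from 162 ± 17.0 to 325 ± 81.6 CPM (SD, n = 4 each). Rps19, needed to process small-subunit RNA, rose from 128 ± 17.2 to 254 ± 68.2 CPM (SD, n = 4 each). Rpsa, a small-subunit protein also described as a laminin receptor, had 391, 362, 352 and 339 CPM in controls and 544, 573, 882 and 595 CPM at day 3, and the groups did not overlap (edgeR adjusted p = 0.0427).

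Among 60S genes 33 of 43 rose, with a median of 0.82. Rpl10, which completes the large subunit in the cytoplasm, had 196, 181, 171 and 150 CPM in controls and 337, 329, 542 and 342 CPM at day 3. Every day 3 value lay above every control value, and the rise was 1.15 ± 0.30 on the log2 scale (SE; edgeR adjusted p = 0.0275). Rpl12, at the base of the stalk, rose from 145 ± 20.8 to 289 ± 81.9 CPM (SD, n = 4 each), and Rpl39, in the exit tunnel of the growing chain, from 91.3 ± 11.4 to 180 ± 51.2 CPM (SD, n = 4 each). Rpl26, a protein near the exit of the tunnel, had the smallest p of all members (log2 difference 0.81 ± 0.18, SE; edgeR adjusted p = 0.0164). The smallest differences in the family belonged to Rps29 at 0.34 and Rps10 at 0.37, neither of which passed the test.

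The stalk is the arm of the large subunit that recruits elongation factors. Its base protein Rplp0 had 468, 403, 332 and 307 CPM in controls, 739, 746, 1347 and 691 CPM at day 3, 1179, 1089, 566 and 529 CPM at day 7, and 1722, 522, 763 and 545 CPM at day 14. All 12 laser-treated libraries were above the 4 controls, and the 4 highest values were in the 4 libraries with the largest share of counts in the family. The log2 fold change of Rplp0 was 1.22, 1.16 and 1.24 at days 3, 7 and 14, and only the first passed the test (edgeR adjusted p = 0.0472, 0.0647 and 0.0965). Rplp1 rose at day 3 (0.81 ± 0.26, SE; edgeR adjusted p = 0.0487), and Rplp2 did not pass the test there (0.92 ± 0.31, SE; edgeR adjusted p = 0.0561).

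**Figure D2:**
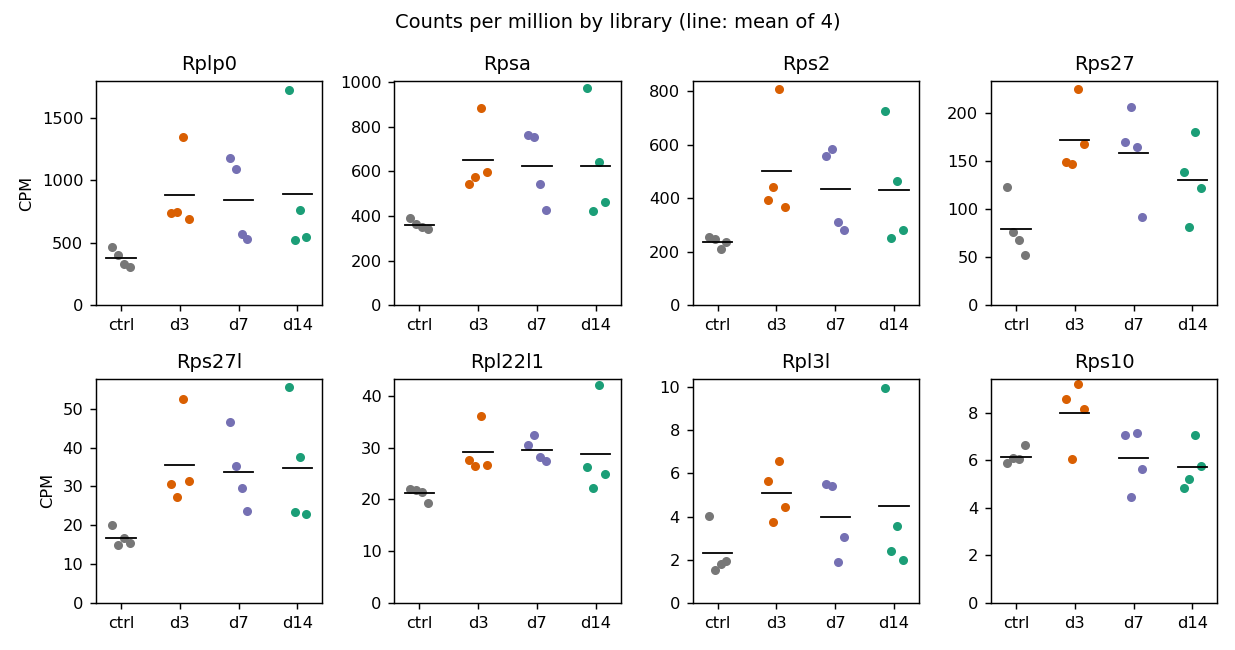
CPM (linear axis from 0) of 8 members in each wild-type library, with the mean of 4 as a line; ctrl is control and d3, d7 and d14 are days after laser. Rplp0, Rpsa, Rps27l and Rpl22l1 have every laser-treated library above every control, Rps2 does at days 3 and 7 only, Rps27 overlaps with control replicate 1 at days 7 and 14, and Rpl3l and Rps10 overlap with controls at every day.

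The paralogues followed the family unevenly. Rps27l, a paralogue of Rps27 known as a p53 target, had 20.1, 15, 16.8 and 15.4 CPM in controls and 30.5, 27.2, 52.4 and 31.5 CPM at day 3, a rise of 1.07 ± 0.29 on the log2 scale (SE; edgeR adjusted p = 0.0317). Its values at day 7 were 46.5, 35.2, 29.7 and 23.7 CPM and at day 14 55.7, 23.3, 37.5 and 22.8 CPM, so that no laser-treated library reached down to the controls. The partner Rps27 had 123, 75.9, 68.0 and 52.5 CPM in controls and 149, 147, 225 and 168 CPM at day 3. Every day 3 value of Rps27 was above its controls as well, by 1.11 on the log2 scale (edgeR adjusted p = 0.03). Rpl22l1, whose product can take the place of Rpl22, had 22, 21.9, 21.4 and 19.4 CPM in controls and 27.7, 26.4, 36.1 and 26.6 CPM at day 3. The groups did not overlap, but the difference of 0.46 did not pass the test (edgeR adjusted p = 0.0745), whereas Rpl22 rose by 0.56 (edgeR adjusted p = 0.0445). Rpl7l1, linked to ribosome assembly, had a difference of 0.43 (edgeR adjusted p = 0.0544) beside 0.80 for Rpl7, which rose (edgeR adjusted p = 0.025). Whether a paralogue and its partner differed in their change was not tested.

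The remaining paralogues had few counts. Rpl3l had 4.02, 1.51, 1.78 and 1.95 CPM in controls and 5.63, 3.74, 6.56 and 4.46 CPM at day 3 (log2 fold change 1.13 ± 0.50, SE; edgeR adjusted p = 0.114). Its partner Rpl3, present in all tissues, had 407, 346, 377 and 372 CPM in controls and 469, 469, 685 and 510 CPM at day 3, a difference of 0.51 without overlap that did not pass (edgeR adjusted p = 0.0624). Skeletal muscle genes, the tissue in which Rpl3l is known, took 0.0277% to 0.0766% of counts in controls and 0.0637% to 0.144% at day 3, and their part in its difference was not tested. Rpl39l had 2, 0, 0 and 2 counts in the 4 controls and 11, 6, 26 and 3 at day 3. It passed the test (edgeR adjusted p = 0.0443), but most of its day 3 counts came from 1 library and the counts are too few to size the change. Rpl36al had 5 to 14 counts in any wild-type library and was not tested, while its partner Rpl36a rose by 0.92 on the log2 scale (edgeR adjusted p = 0.0325). Rpl10l had 0 counts in all 22 libraries.

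**Figure D3:**
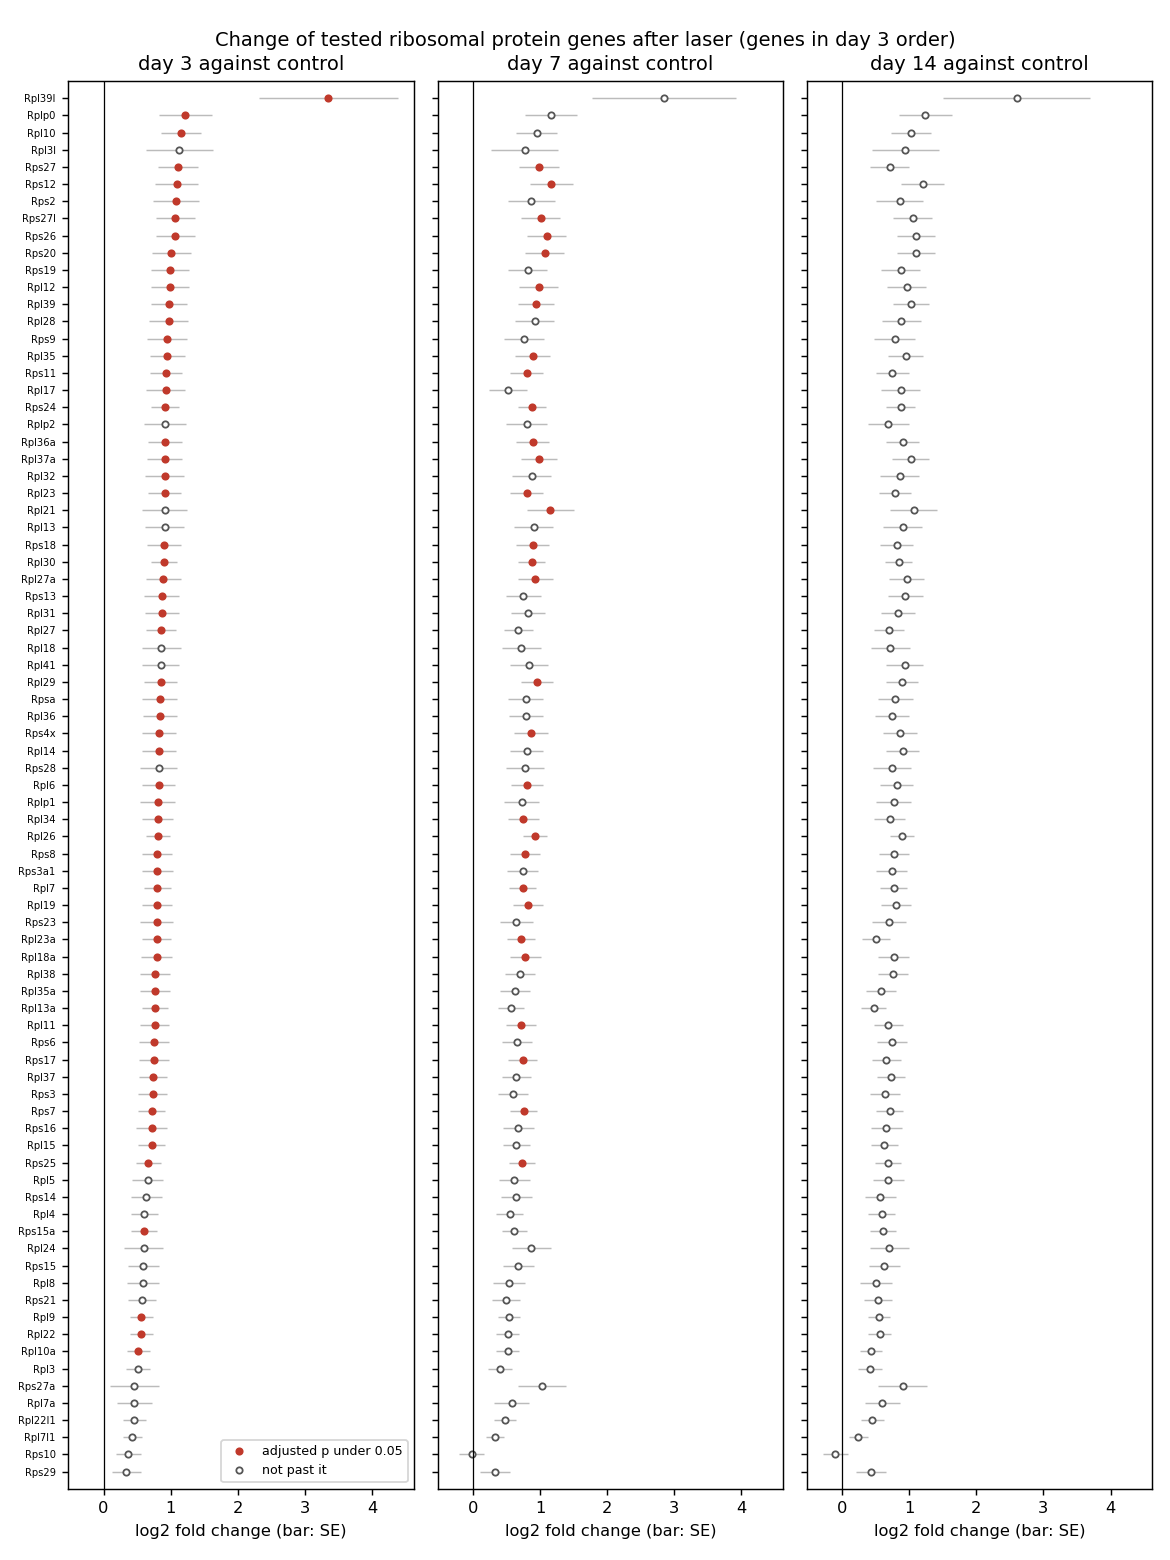
Log2 fold change against control (points; bars, SE) of tested members at days 3, 7 and 14, with genes in the order of their day 3 value in all panels. Filled points passed an adjusted p under 0.05 in edgeR's test, many at day 3, fewer at day 7 and 0 at day 14, while nearly all points lie to the right of 0 at every day.

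At day 7 the level of the family was much the same and fewer members passed. In edgeR's test 31 of 82 rose and 0 fell, where 3.62% of all tested genes rose and 6.9% fell, while DESeq2 called 68 (20.2% of all tested genes, in either direction). In 81 members the log2 fold change was above 0, against 52.2% of all tested genes, and the median was 0.78. The largest rises among called members were Rps12 (1.17), Rpl21 (1.15), Rps26 (1.10), Rps20 (1.07) and Rps27l (1.01). Rpl37a, Rps27, Rpl12, Rpl29 and Rpl39 followed at 0.99, 0.99, 0.98, 0.96 and 0.94. In 67 of the 82, every day 7 library was above every control, against 11.3% of all tested genes. At day 14, 0 members passed in edgeR's test in either direction, where 0.0322% of all tested genes rose and 0.241% fell. At an unadjusted p under 0.05 the count was 78 higher, against 12.9% of all tested genes. DESeq2 called 54 members higher at day 14, and 9.65% of all tested genes in either direction. The log2 fold change was above 0 in 81 members, against 53.6% of all tested genes, with a median of 0.77. In 57 members the groups did not overlap, against 6.76% of all tested genes. The spread within the group was wider: the median ratio of a member's highest to its lowest library was 1.24 in controls and 1.57, 1.72 and 2.10 at the successive days.

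The authors' deposited table had 77, 76 and 34 of 83 members higher at days 3, 7 and 14 and 0 lower at an adjusted p under 0.05. Of all genes given an adjusted p in the authors' deposited table, 14% were higher at day 3, 9.17% at day 7 and 1.71% at day 14.

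No change between the days was detected. Day 7 against day 3 gave 0 called members (background 0%) and a median log2 difference of -0.04, with 0 members at an unadjusted p under 0.05, where 3.06% of all tested genes were higher and 3.07% lower. Day 14 against day 3 gave 0 called members (background 0% higher and 0.00536% lower) and a median of -0.03, with 1 member, Rps10, lower at an unadjusted p under 0.05, where 3.44% of all tested genes were lower and 3.33% higher. DESeq2 called 0 in both. These comparisons share libraries with those against control.

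The number of calls moved with single libraries, and the median of the family moved less. At day 3 the 61 calls fell to 7, 1, 0 and 2 without control replicate 1, 2, 3 or 4, and to 13, 54, 0 and 9 without day 3 replicate 1, 2, 3 or 4. Over all tested genes the share called in either direction fell as well, from 14.7% to between 1.54% and 12.7%. The median log2 fold change of the family remained between 0.65 and 0.89 in these fits. At day 7 the 31 calls fell to 4, 1, 1 and 1 without control replicate 1, 2, 3 or 4 and were 1, 1, 17 and 62 without day 7 replicate 1, 2, 3 or 4, with medians between 0.67 and 0.91. The share of all tested genes called at day 7 was 0.675% to 15.4% in these fits, against 10.5% with all libraries. At day 14 the count was 3 without day 14 replicate 2, 2 without replicate 4 and 0 without any other library, where 0.00527% to 0.838% of all tested genes were called. A fit also left out the third library of day 3, the second of day 7 and the first of day 14, which hold, in turn, the highest cornea share at day 3, the lowest lens share and the highest lens share. The calls were then 63, 62 and 4 at days 3, 7 and 14 and the medians 0.67, 0.69 and 0.53, and 22.2%, 19.6% and 2.74% of all tested genes were called in either direction.

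Marker genes of other tissues and cells also differed between the libraries. The 21 lens genes (crystallins and lens fibre proteins) took 0.0278% to 1.61% of counts in controls, 3.30% to 6.39% at day 3, 0.0109% to 4.58% at day 7 and 0.0899% to 14.7% at day 14. The 13 genes of cornea and conjunctiva took 0.273% to 0.861%, 0.504% to 3.39%, 0.582% to 2.83% and 0.622% to 1.77%. None of the genes of either list was at 0 in every library. The 20 rod genes took 6.99% to 7.70% in controls and 3.18% to 5.31% at day 3. They took 4.18% to 7.25% at day 7 and 1.56% to 6.81% at day 14. Monocyte and macrophage genes took 0.0159% to 0.0201% in controls and 0.0346% to 0.0816% at day 3. Their range was 0.0272% to 0.0656% at day 7 and 0.0249% to 0.0716% at day 14. Of their 16 tested genes 12, 3 and 0 rose at days 3, 7 and 14. Of 20 proliferation genes 12, 1 and 0 rose at the same days. Over all tested genes 6.97%, 3.62% and 0.0322% rose.

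The 6 wild-type libraries with over 1% of counts in cornea and conjunctiva genes had 2.294% to 3.143% in ribosomal protein genes, and the other 10 wild-type libraries had 1.364% to 2.299%. Among the controls, the highest of both shares were in replicate 1 and the lowest of both in replicate 4. For the lens share the order was mixed. Its lowest value among the controls (0.02778%) was also in replicate 4, but its highest (1.615%) was in replicate 2. Day 14 replicate 1, with the highest lens share of all (14.67%), had 3.068% of its counts in ribosomal protein genes. The library with the lowest lens share of all, day 7 replicate 2 at 0.0109%, had 2.821% of its counts in ribosomal protein genes, and day 14 replicate 3, with a lens share of 0.0899%, had 2.768%. Both had more counts in cornea and conjunctiva genes than any control, 2.446% and 1.259%. Other laser-treated libraries had a cornea and conjunctiva share below that of control replicate 1 (0.8606%), from 0.5037% to 0.7784%. Their ribosomal protein shares were 1.769% to 2.299%, above the 1.609% of that control. The part of these tissues in the difference at any day was not tested beyond the following fit. With both marker scores as covariates in edgeR's fit, 0, 3 and 1 members passed at days 3, 7 and 14, and the medians were 0.44, 0.35 and 0.42, with 81, 79 and 81 of 82 members above 0. Of all tested genes, 4.36%, 9.95% and 0.858% passed in either direction in that fit, against 14.7%, 10.5% and 0.273% without the scores. Rps29 turned from 0.34 to -0.13 at day 3 and from 0.33 to -0.03 at day 7, and Rpl3l from 0.77 to -0.05 at day 7. The 3 members called at day 7 were Rpl26 (0.68), Rpl30 (0.62) and Rps24 (0.57), and Rpl26 (0.73) was the one called at day 14.

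**Figure D4:**
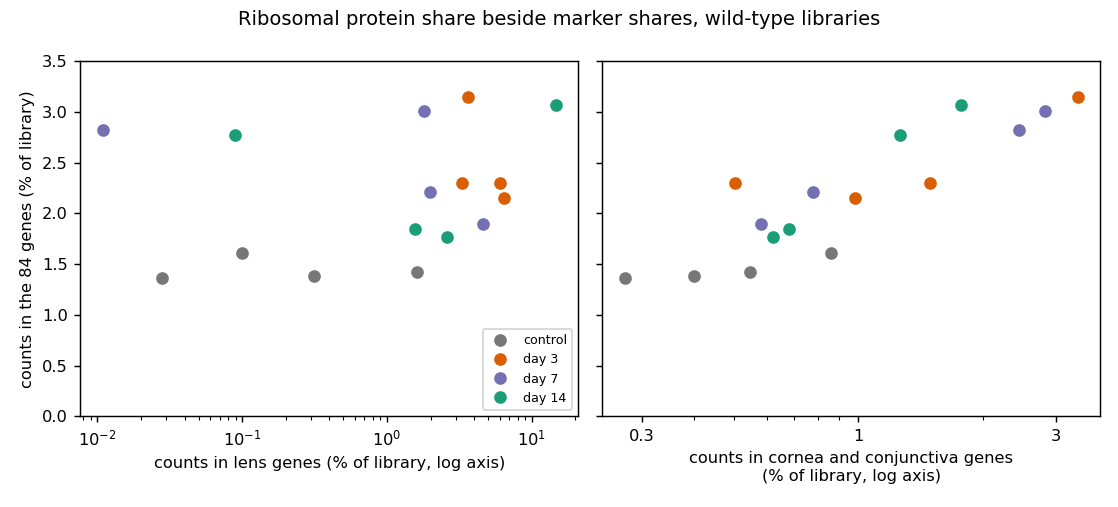
Percent of counts in the 84 ribosomal protein genes against percent of counts in lens genes (left) and in cornea and conjunctiva genes (right, both log axes), 1 point per wild-type library. Laser-treated libraries lie above the controls at lens shares from 0.0109% to 14.7%, and the library with the smallest cornea and conjunctiva share (0.2729%) has the smallest ribosomal protein share (1.364%) and that with the largest (3.392%) the largest (3.143%). Laser-treated libraries with a cornea and conjunctiva share below the highest control (0.8606%) also lie above the controls.

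Short transcripts were a further property that moved with the result. The deposited gene length had a median of 1754 bases over the tested members and 3762 over all tested genes. With a fit that removes each library's trend with gene length, 18, 3 and 0 members passed in edgeR's test at days 3, 7 and 14, with medians of 0.67, 0.59 and 0.61. Of all tested genes, 7.78%, 3.49% and 0.0965% passed in either direction in that fit.

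In the lists of other genes of translation and its control, a smaller share of genes passed at day 3 than in the family. Over all tested genes 6.97% rose and 7.77% fell at day 3, and some of the list counts are near these shares. The fusion protein gene Fau, which yields the small-subunit protein eS30, rose at day 3 from 196 ± 15.4 to 322 ± 51.5 CPM (SD, n = 4 each), while Rack1, a scaffold on the small subunit, had a log2 fold change of 0.81 that did not pass (edgeR adjusted p = 0.0505). Of 77 mitochondrial ribosomal protein genes tested, 8 rose and 0 fell, with a median of 0.24. The 3 with the smallest p were Mrps25 (0.56), Mrps27 (0.54) and Mrpl24 (0.31). Of 10 genes in the elongation list, Eef1b2 (1.02) and Eef1d (0.69) rose and Eif5a2 (-0.81) fell, with a median of 0.64. Tpt1 (1.0), listed with them though not itself an elongation factor, also rose. Of 30 initiation factor genes 3 rose and 1 fell (median 0.29), and the smallest p belonged to Eif4g3 (-0.47), Eif3i (0.55) and Eif2s1 (0.44). Of 41 ribosome biogenesis genes 3 rose, Nhp2 (1.06), Npm1 (0.54) and Fbl (0.70), with a median of 0.12. Of 18 genes of mTOR and Myc control, Myc (2.42) and Eif4ebp1 (2.09) rose and Rptor (-0.46) and Rictor (-0.71) fell, with a median of -0.05. Of 12 p53 targets 4 rose, Bax (0.54), Phlda3 (1.71), Bbc3 (0.73) and Cdkn1a (1.54), and Zmat3 (-0.47) fell, with a median of 0.14. At day 7 the mitochondrial list had 11 higher and 0 lower (median 0.30), the initiation list 2 and 2 (median 0.22) and the biogenesis list 2 and 1 (median 0.10). Over all tested genes 3.62% rose and 6.9% fell at day 7. Fau rose by 0.73, the elongation list had 0 called genes (median 0.46), the mTOR and Myc list 4 lower (median -0.26) and the p53 list 1 in each direction (median 0.05). At day 14, 0 genes of these lists passed in edgeR's test, where 51 of all tested genes did, with medians of -0.08 for the mTOR and Myc list and 0.40 for the elongation list.

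Levels differed widely between members. Per kilobase of the deposited gene length, the highest in controls were Rplp1 at 739 ± 59.9 CPM per kb (SD, n = 4), Rps15 at 452 ± 24.5, Rpl36 at 343 ± 25, Rps3a1 at 290 ± 24.5 and Rpl41 at 275 ± 18.6. Rps3a1 and Rpl41 differ by less than their spread. The lowest were Rpl10l, at 0, and the paralogues Rpl39l (0.0763), Rpl36al (0.32) and Rpl3l (1.41), followed by Rpl24 (2.5). Of the 50-base stretches of Rpl24, 81.7% also occur in other genes, so the level of its row is uncertain. The median over tested members was 88.8 CPM per kb against 4.4 over all tested genes, and 74.4% of members were above the 95th percentile of all tested genes. How the deposited length was set for genes with several isoforms is not given in the sources used here.

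Many members share long stretches of sequence with their pseudogenes. Of the 50-base stretches in the coding transcripts of a member, a median of 35.85% also occurred, letter for letter, in another annotated gene, and for 28 members at least 50% did. Rpl35 had 95.1% of its stretches in other genes, and Rpl3l and Rpl39l had none. In all, 403 annotated copies of 70 members were found, 387 of them called pseudogenes. They held 7.27% to 8.36% of the counts of the families in wild-type libraries. How reads with several matches were counted is unknown, and near-identical copies make the value of a single row uncertain.

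Rps10, one of the 2 members whose fitted change was smallest at day 3, is the clearest case in wild type. The gene itself, on chromosome 17, had 5.88, 6.10, 6.04 and 6.63 CPM in controls and 8.57, 6.04, 9.20 and 8.15 CPM at day 3, and the groups overlapped. Its processed copy Rps10-ps2, on chromosome 16, had 62.4, 53.5, 49.4 and 48.9 CPM in controls and 92.3, 94.3, 143 and 93.2 CPM at day 3, with no overlap. Over 495 coding bases the gene and the copy differ at 5. A stretch of 60 bases is shown for both, with the base that differs in capitals.
Rps10, chr17:27632279-27632338, minus strand: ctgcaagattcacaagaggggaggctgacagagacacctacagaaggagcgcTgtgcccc
Rps10-ps2, chr16:20822241-20822300, minus strand: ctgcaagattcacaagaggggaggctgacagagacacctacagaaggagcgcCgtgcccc
With the counts of all copies added, Rps10 had 59.8 to 73.5 CPM in controls and 107 to 163 CPM at day 3, and its log2 fold changes became 0.93, 0.99 and 0.88 at days 3, 7 and 14 in place of 0.37, -0.02 and -0.10. The first and second of these passed edgeR's test (adjusted p = 0.0337 and 0.0333; 0.0894 at day 14). Rpl24, a 60S protein with the fifth lowest level per length, went the same way, from 0.60 to 0.84 at day 3 (edgeR adjusted p = 0.143 alone and 0.0319 with copies), and Rps27 the other way, from 1.11 to 0.68 (edgeR adjusted p = 0.03 and 0.0421). Summing copies for every member gave 62, 45 and 0 called members at days 3, 7 and 14, in place of 61, 31 and 0. The medians were 0.82, 0.81 and 0.79, in place of 0.82, 0.78 and 0.77. The share of all tested genes called with copies summed is not given here. The families summed were chosen after the files had been seen.

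In the Rag2 table the family differed by little between genotypes. The summed share was 1.652%, 1.468% and 1.596% in Rag2-/- libraries and 1.844%, 1.79% and 1.716% in Rag2-/-γc-/- libraries, so that the groups did not overlap, with a gap of 0.0633 percentage points and a ratio of means of 1.13. In edgeR's test 1 of 82 members, Rps27, was higher and 0 were lower, where 0.211% of all 18923 tested genes were higher and 0.254% lower, while DESeq2 called 12 members higher and 3.66% of all tested genes in either direction. The log2 difference was above 0 in 74 members, against 50.8% of all tested genes, with a median of 0.17 against 0.00 over all tested genes. In 35 members every Rag2-/-γc-/- library was above every Rag2-/- library, against 11.5% of all tested genes, and 32 were higher at an unadjusted p under 0.05, against 7.97%. Monocyte and macrophage genes took 0.0428% to 0.0552% of counts in Rag2-/- and 0.0598% to 0.115% in Rag2-/-γc-/- libraries, also without overlap. Lens genes took 0.276% to 0.979% and 0.0279% to 1.01%, and cornea and conjunctiva genes 0.00121% at most, where the wild-type libraries had 0.273% to 3.39%. The part of these cells and tissues in the difference was not tested. Of the lists of translation and its control, 0 genes passed in edgeR's test, with medians from -0.01 to 0.11.

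Rplp1 and Rpsa, among the most abundant members, differed by more than most of the family, whose median was 0.17 and upper quartile 0.27. Rplp1 had 584, 517 and 533 CPM in Rag2-/- and 657, 660 and 649 CPM in Rag2-/-γc-/- libraries, and Rpsa had 572, 501 and 535 against 659, 631 and 669 CPM. Neither gene overlapped between the genotypes, and their differences of 0.27 and 0.29 on the log2 scale did not pass the test (edgeR adjusted p = 0.149 and 0.141). Rps27l, with 17.1, 16.3 and 19 against 23.3, 24.2 and 24.4 CPM, had a difference of 0.45 (edgeR adjusted p = 0.105). Rpl3l had 0.561, 0.703 and 0.364 against 1.94, 4.25 and 1.20 CPM (log2 difference 2.17 ± 0.51, SE; edgeR adjusted p = 0.121), beside skeletal muscle genes at 0.00984% to 0.0174% and 0.0135% to 0.0685% of counts. Rpl39l, not tested, had 0, 1 and 1 counts against 9, 6 and 2.

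In several members the Rag2 libraries differed in how counts were split between a gene and its copy. Copies held 10.23% to 14.05% of the counts of the families here. Rpl34, a 60S protein on chromosome 3, had 77.2, 7.16 and 78.2 CPM in Rag2-/- and 179, 167 and 150 CPM in Rag2-/-γc-/- libraries. Its processed copy Rpl34-ps1, on chromosome 6, had 85.6, 150.0 and 76.2 CPM and then 10.3, 15.6 and 16.9 CPM. The library with the lowest value for the gene had the highest for the copy, and the genotypes did not overlap for either. With all copies added the family had 165, 158 and 156 against 194, 187 and 170 CPM, and the log2 difference went from 1.61 to 0.20 (edgeR adjusted p = 0.502 and 0.235). Gene and copy differ at 2 of 353 coding bases, and a stretch around 1 of them is shown with that base in capitals.
Rpl34, chr3:130729055-130729114, minus strand: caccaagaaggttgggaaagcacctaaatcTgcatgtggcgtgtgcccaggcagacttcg
Rpl34-ps1, chr6:71124711-71124770, plus strand: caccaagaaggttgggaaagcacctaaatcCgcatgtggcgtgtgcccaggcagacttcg

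Rps27, the single called member, has an identical copy. It had 86.4, 86.5 and 70.5 CPM in Rag2-/- and 141, 123 and 120 CPM in Rag2-/-γc-/- libraries, a difference of 0.66 ± 0.10 on the log2 scale (SE; edgeR adjusted p = 0.0311). Rps27rt on chromosome 9, annotated as protein coding, had 57.7, 42.2 and 62.3 CPM and then 23.6, 56.2 and 24.9 CPM. Over the 252 coding bases of Rps27 the 2 genes are identical, and a stretch of the coding sequence is shown for both.
Rps27, chr3:90213242-90213301, minus strand: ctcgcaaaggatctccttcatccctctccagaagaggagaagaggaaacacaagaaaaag
Rps27rt, chr9:114982642-114982701, minus strand: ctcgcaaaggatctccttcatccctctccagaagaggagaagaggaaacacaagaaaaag
With copies added Rps27 had 144, 129 and 133 against 165, 179 and 145 CPM. The groups still did not overlap, but the difference was 0.27 and no longer passed (edgeR adjusted p = 0.222), and 0 members were called in that fit. The call was also lost without Rag2-/- replicate 1, Rag2-/-γc-/- replicate 1 or Rag2-/-γc-/- replicate 2, each of which left 0 members called.

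Rpl30 showed the reverse. It had 63.6, 15.9 and 67.3 CPM in Rag2-/- and 13.5, 28.2 and 13.8 CPM in Rag2-/-γc-/- libraries, and its copy Gm12191 on chromosome 11 had 75.7, 106 and 82.1 and then 123, 125 and 107 CPM. The log2 difference went from -1.40 alone to -0.05 with copies (edgeR adjusted p = 0.442 and 0.876). The 2 differ at 1 of 345 coding bases, shown in capitals.
Rpl30, chr15:34442677-34442736, minus strand: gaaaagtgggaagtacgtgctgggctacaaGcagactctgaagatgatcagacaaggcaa
Gm12191, chr11:49678933-49678992, minus strand: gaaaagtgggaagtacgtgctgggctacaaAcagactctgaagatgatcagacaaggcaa
Rps3a1 had 339, 60.9 and 196 CPM in Rag2-/- libraries, where its copy Rps3a2 had 1.58, 141 and 79.5 CPM, and with all copies the family had 343, 302 and 323 CPM. Other members stayed uneven with copies added. Rps18 had 160, 21.1 and 145 CPM in Rag2-/- libraries alone and 198, 85.2 and 176 CPM with copies. Rpl29 had 3.00, 2.51 and 124 CPM alone and 40.6, 36.9 and 142 CPM with copies. Over the family, 8 members in Rag2-/- and 7 in Rag2-/-γc-/- libraries differed by more than 2-fold between libraries of the group, and 3 and 2 with copies added, while the median ratio of highest to lowest library was 1.14 and 1.16.

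**Figure D5:**
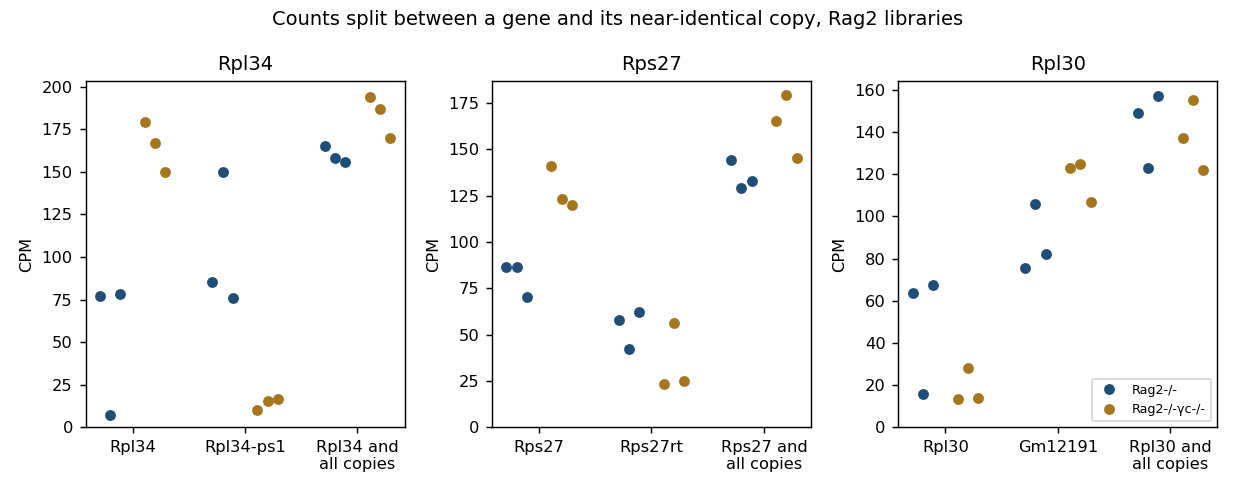
CPM (linear axis from 0) of Rpl34, Rps27 and Rpl30, of 1 near-identical copy of each and of the gene with all its copies, in the 3 Rag2-/- and 3 Rag2-/-γc-/- libraries (points). Without its copies Rpl34 lies at 7.16 to 78.2 against 150 to 179 CPM. Once copies are added it lies at 156 to 165 against 170 to 194 CPM, closer but still without overlap. Rps27 without its copies does not overlap either, at 70.5 to 86.5 against 120 to 141 CPM.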

How the data were processed

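Libraries were grouped by title, genotype and time point. Per the submitters' processing notes, the authors deposited raw counts per gene from featureCounts 1.5.0-p3 on mm10. Aligner, annotation, strand setting and treatment of multiply matching reads were not given in the sources used here. FPKM values were deposited beside the counts, per the file headers, and were used only for a check that they equal the count over length and library size. The authors' deposited log2 fold changes and adjusted p-values were read for their counts of members only.

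Counts were tested over the whole of each table with edgeR 4.0.16 in R 4.3.3 (filterByExpr with a minimum count of 10, TMM, quasi-likelihood test, Benjamini-Hochberg over all genes tested, threshold 0.05), with all 16 wild-type libraries in 1 fit and the 6 Rag2 libraries in another. CPM use TMM-scaled library sizes. Shares use raw counts. On simulated counts with 1.75-fold changes in 100 genes chosen at random, the fit recovered 47% of them at day 3 (18392 genes). In the Rag2 table it recovered 84% (18630 genes). The same runs called 8 and 21 unchanged genes. Genes were drawn independently there, whereas the members move together, so these shares do not give the power for the family. Lens and cornea scores, gene-length offsets, other scalings, the replicate block, omitted libraries and summed copies were tried as alternatives, with DESeq2 1.42.0 and limma 3.58.1. Intervals cover counting error only. Copies were annotated genes sharing at least 100 stretches of 50 bases with a member and either called pseudogenes or matching over at least 0.5 of their own stretches (GENCODE M21). Named genes were the 10 largest called changes per comparison, the paralogues with their partners, the stalk, Rpsa, the 5 highest and lowest levels and, from each list, the 3 smallest p. Rps10, Rpl24, Rpl30, Rpl34 and the other families shown with copies were chosen after their values were seen. A few genes that entered the counts and medians are not reported here by name. Members and lists were chosen with earlier results of these data known.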

Additional observations from a re-analysis of the deposited data

Results flagged for a closer look

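Of 112 sets of 4 libraries tested (the family's share and single members, in each wild-type group), 12 held a library far from the other 3, by Dixon's criterion at 95%, which flags about 1 in 20 by chance. All 12 were in day 3 replicate 3, and they are not independent, since the genes move together. The share of counts was 3.14% there against 2.15% to 2.3% in the other day 3 libraries. The members were Rplp0 at 1347 CPM (others 691 to 746), Rplp1 at 863 (556 to 581), Rpsa at 882 (544 to 595), Rps2 at 808 (368 to 441), Rps26 at 446 (249 to 280) and Rps27l at 52.4 (27.2 to 31.5). The large-subunit members were Rpl10 at 542 CPM (others 329 to 342), Rpl12 at 412 (247 to 250), Rpl29 at 274 (166 to 183), Rpl39 at 256 (146 to 164) and Rpl22l1 at 36.1 (26.4 to 27.7). The same library had the largest share of day 3 counts in cornea and conjunctiva genes, 3.392%, and the smallest in rod genes, 3.177%. Without it 0 members were called at day 3.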

How the results depend on the processing

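The median log2 fold change of the family kept its sign in every alternative against control and between the Rag2 genotypes. It moved beyond the spread between libraries only with lens and cornea covariates, to 0.44, 0.35 and 0.42 at days 3, 7 and 14. The number of members called moved more. At day 3 (61 called) the gene-length offset gave 18 and the covariates 0. At day 7 (31 called) DESeq2 gave 68, library totals 53, cyclic loess 51, no count filter 13, the gene-length offset 3, a fit of the compared groups only 74, the covariates 3 and leaving out the 3 libraries 62. At day 14 (0 called) DESeq2 gave 54, TMM without the members 1, voom 1, cyclic loess 1, the covariates 1 and leaving out the 3 libraries 4. Between Rag2 genotypes (1 called) DESeq2 gave 12, no count filter 5 and summed copies 0. Shares of all tested genes called are not given here for library totals, TMM without the members, voom, cyclic loess or no count filter. Nor are they given for the compared groups only or summed copies. Counts from those fits do not show whether the family alone moved or all genes did. Leaving out 1 library at a time gave 0 to 54 calls at day 3 (medians 0.65 to 0.89), 1 to 62 at day 7 (0.67 to 0.91), 0 to 3 at day 14 (0.54 to 0.89) and 0 to 1 between Rag2 genotypes (0.14 to 0.22). Between days it gave 0 calls, with medians of -0.15 to 0.12 for day 7 and -0.27 to 0.10 for day 14 against day 3. With the covariates Rpl3l at day 7 turned to -0.05 and Rps29 to -0.13 at day 3 and -0.03 at day 7. The cause of these moves was not tested, beyond fewer libraries where some were left out.

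No clear pairing by replicate number was seen. In wild type, deviations of same-numbered libraries correlated between -0.506 and 0.479 (median 0.104). Those of differently numbered libraries of other groups correlated between -0.561 and 0.596 (median -0.006). In the Rag2 table the ranges were -0.058 to 0.078 and -0.061 to 0.115. With the replicate number as a block, 67, 38 and 0 members were called at days 3, 7 and 14, 0 between days and 1 between Rag2 genotypes. The share of all tested genes called in that fit is not given here. Depth limited Rpl39l, Rpl36al and Rpl10l, whose counts were too low to size a change.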
